A study of Oryctolagus cuniculus with 57 samples.

Results

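The enzymes that oxidize, reduce, hydrolyse and conjugate drugs and other foreign compounds were described in the ileum of young rabbits. The genes were taken by symbol from the series' value table: cytochromes P450 (CYP, leaving out the bile acid families CYP7, CYP8 and CYP27), UDP-glucuronosyltransferases (UGT1 and UGT2), glutathione S-transferases (GST), sulfotransferases (SULT), aldo-keto reductases (AKR1), carboxylesterases (CES) and flavin-containing monooxygenases (FMO). The rule used names. The names of CYP1A1, CYP2E1 and GSTA5, however, came only from the study's lists of genes that differed between the ages on these same arrays. Their entry therefore rested on measured values. It gave 75 of 33284 probes, which stand for 44 of 8363 named genes, and 42 of these genes could be tested. The 2 others, CYP2G1, a cytochrome P450, and SULT1E1, the estrogen sulfotransferase, were too dim for the filter described below.

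All rabbits were commercial hybrids (PS Hyplus 19 × PS Hyplus 39), and each gave 1 array of whole ileum. In the FF group, pups could eat in the nest the fecal pellets of unrelated, untreated does. In the FFab group the pellets came from unrelated does given tiamulin and tetracycline, and in the NF group pups had no access to pellets. Rabbits were sampled at 35 days, the age at weaning, or at 49 days. NF rabbit 78 of day 35, which the study set aside, was left out. The younger age then had 10 FF rabbits, 9 NF rabbits and 10 FFab rabbits, and the older age had 9 for each treatment. Different rabbits were sampled at the 2 ages, and litter and sex entered no test. The ileum was ground whole, so fewer cells of a type and less RNA per cell cannot be told apart.

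These enzymes turn fat-soluble foreign compounds into products that can be excreted. Cytochromes P450, monooxygenases, reductases and esterases add or uncover a reactive group, and transferases then attach glucuronic acid, sulfate or glutathione. The epithelium of the small intestine is the first tissue to meet compounds from food and from gut microbes, and several of the genes are switched on by receptors that bind such compounds, among them the aryl hydrocarbon receptor and the pregnane X receptor.

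The array reads each gene through probes of 60 bases. The probes on which the results turn are given 5′ to 3′, because rabbit P450 and transferase genes are close relatives and the letters decide what a spot can measure. In the pair of CYP1 probes, capitals mark the 12 bases of 54 aligned bases at which CYP1A1 and P450 LM4 (the rabbit CYP1A2 protein) differ. Of the aligned bases, 77.8% were identical. The P450 LM4 probe shown is the one of that locus most like the CYP1A1 probe, and no other locus was searched.
CYP1A1: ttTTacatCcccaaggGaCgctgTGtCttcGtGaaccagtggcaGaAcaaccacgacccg
P450 LM4: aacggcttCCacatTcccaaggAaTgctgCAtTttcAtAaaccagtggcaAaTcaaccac
In the CYP2A11 probe, capitals mark the 30 bases that code for the haem-binding cysteine motif shared by P450 enzymes, which 1 of 33 P450 probes searched held in frame.
CYP2A11: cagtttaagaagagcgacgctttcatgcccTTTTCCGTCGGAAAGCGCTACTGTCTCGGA
The files name this probe CYP2A10, and it matches the transcripts of CYP2A10 and CYP2A11, which cannot be told apart here. The AKR1C1L and SULT1C2 probes carry no marked bases. The SULT1C2 probe lies in coding sequence at chr2:84309597-84309656 on the minus strand (build oryCun2), and the files give no position for the CYP1A1, P450 LM4, CYP2A11 and AKR1C1L probes.
AKR1C1L: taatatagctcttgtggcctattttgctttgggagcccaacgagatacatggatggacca
SULT1C2: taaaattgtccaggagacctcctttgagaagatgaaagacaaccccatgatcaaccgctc
The GSTA5 gene is read by a pair of probes on the minus strand of chromosome 12 that share the 40 bases in capitals. The first lies at chr12:42635491-42635550, and the second spans an intron at chr12:42633670-42635530.
GSTA5 first probe: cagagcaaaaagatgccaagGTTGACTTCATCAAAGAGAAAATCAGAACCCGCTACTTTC
GSTA5 second probe: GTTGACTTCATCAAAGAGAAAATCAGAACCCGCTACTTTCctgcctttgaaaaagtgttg

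Of the spots on each array, 66.0 to 83.7% were well above background, and the arrays correlated with each other at 0.948 to 0.990. Of the 42 genes tested, 34 passed the filter in all 6 groups and 27 were above background on all 56 arrays. EPCAM, which marks epithelium, lay between 15.52 and 16.26 on the log2 scale in all rabbits. A few libraries stood apart for markers of the ileum. SLC10A2, the ileal bile acid transporter, was not well above background in 5 rabbits, of which 2 were FFab rabbits of day 35, 2 were FFab rabbits of day 49 and 1 was an NF rabbit of day 49. In these 5 rabbits FABP6, the ileal bile acid binding protein, read 7.87 to 15.48 against a median of 19.19 over all rabbits. In NF rabbit 93 of day 35, FABP6 read 9.46 and SLC10A2 read 4.57, above background. Results that rest on the 5 rabbits are given with and without them.

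When the 3 treatments were averaged, 9 enzymes rose from day 35 to day 49 and none fell. Those that rose were the oxidases CYP1A1 and CYP2E1, the reductase AKR1C1L, the esterase CES1, and the transferases SULT1C2, GSTA5, GSTM2, GSTP1 and UGT2B13. A gene was called when limma gave a Benjamini-Hochberg adjusted p under 0.05 over all genes and a log2 fold change beyond 0.5. CYP2A11 was called as fallen under 2 alternatives, given with that gene. By this rule 9 of 42 enzymes were called, beside 3.43% of all 8045 genes, 2.36% up and 1.07% down. CYP1A1, CYP2E1 and GSTA5 became members only because the study's own lists of genes that differed with age named them. Their calls were thus likely in advance, and the share of enzymes called is raised by this choice. It cannot be weighed against the share of all genes as a test. The same limit holds for every later count that includes these genes. The enzymes did not shift as a whole: 21 of 42 were higher at day 49, and their median log2 fold change was -0.00, as was that of all genes. At an unadjusted p under 0.05 there were 17 of 42 enzymes, against 25.6% of all genes.

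**Figure D1:**
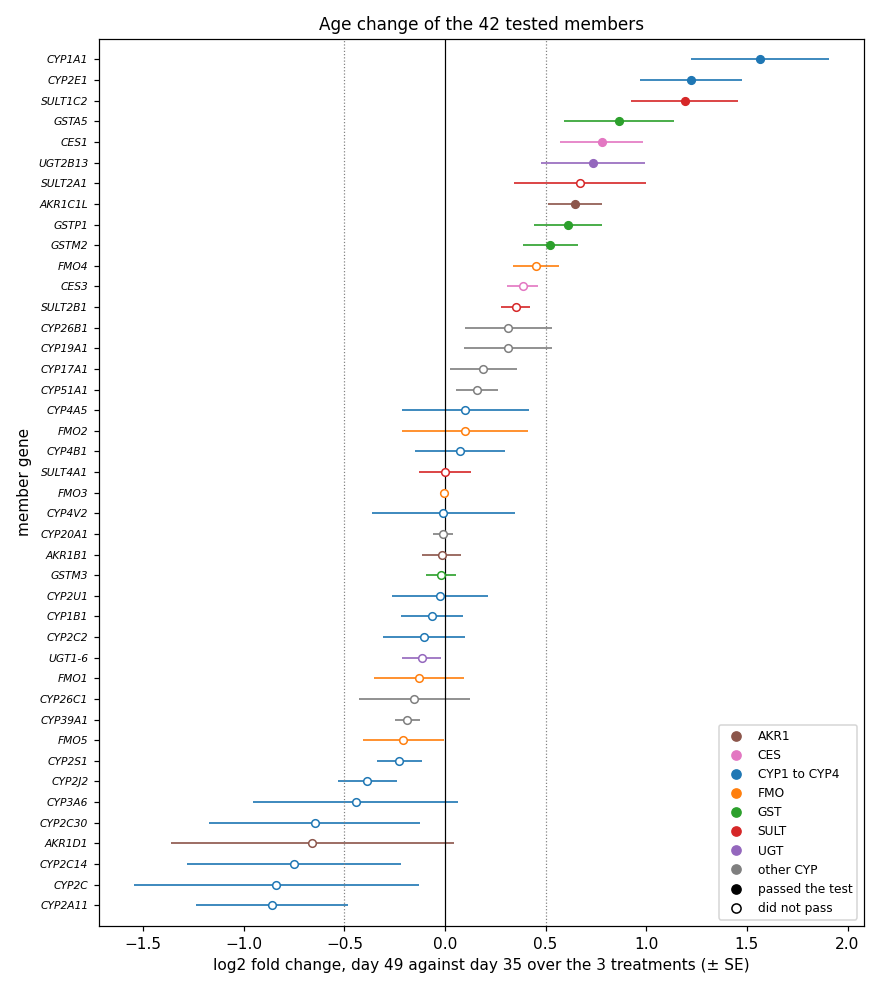
Log2 fold change of each of the 42 tested enzymes between the ages of 35 and 49 days, as the mean of the 3 treatments (horizontal axis; points with bars of 1 SE, 56 rabbits). Filled points passed the test, and the dotted lines stand at -0.5 and 0.5. The 9 filled points lie on the right, from 0.52 for GSTM2 to 1.56 for CYP1A1.

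By family, 3 of 4 glutathione S-transferases rose, as did 1 of 2 carboxylesterases, 1 of 2 glucuronosyltransferases, 1 of 4 sulfotransferases, 1 of 3 aldo-keto reductases and 2 of 15 P450s of families CYP1 to CYP4. None of the 7 other P450s and none of the 5 flavin-containing monooxygenases passed. Of all genes, 2.36% rose. GSTA5 and the P450s that rose, CYP1A1 and CYP2E1, entered their families only through the study's lists of genes that differed with age. The counts of those families are raised by this. The counts also leave out a locus named glutathione S-transferase alpha 4, which was lower at day 49 but short of a call. Without the 5 rabbits that lacked SLC10A2 signal, 6 of the 9 calls remained: AKR1C1L, CES1, CYP1A1, CYP2E1, GSTP1 and SULT1C2. GSTA5 then stood at 0.81 (adjusted p = 0.0561), GSTM2 at 0.49 (adjusted p = 0.0138) and UGT2B13 at 0.55 (adjusted p = 0.146), all by limma.

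CYP1A1 oxidizes polycyclic aromatic hydrocarbons and is the best known target gene of the aryl hydrocarbon receptor. In FF rabbits its log2 level ran from 6.57 through a median of 8.82 to 10.96 at day 35, and from 9.87 through 11.40 to 11.85 at day 49. The groups overlapped little: 7 of 9 rabbits of day 49 lay above every rabbit of day 35, and 7 of 10 rabbits of day 35 lay below every rabbit of day 49. CYP1A1 rose 4.97-fold in FF (log2 fold change 2.31 ± 0.59 (SE), limma adjusted p = 0.00859). Within slides it was higher at day 49 on 8 of 9 slides.

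In NF rabbits CYP1A1 ran from 5.28 through 10.54 to 11.68 at day 35 and from 8.20 through 11.52 to 11.85 at day 49. In FFab rabbits it ran from 7.99 through 10.62 to 11.80 and from 9.41 through 11.64 to 13.01. The ages overlapped in both treatments, and the changes of 1.01 ± 0.60 in NF (limma adjusted p = 0.944) and 1.37 ± 0.59 in FFab (adjusted p = 0.504) did not pass. Without the 5 rabbits that lacked SLC10A2 signal they were 1.35 and 0.75. Averaged over the treatments CYP1A1 rose 2.96-fold (1.56 ± 0.34, limma adjusted p = 0.00111).

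**Figure D2:**
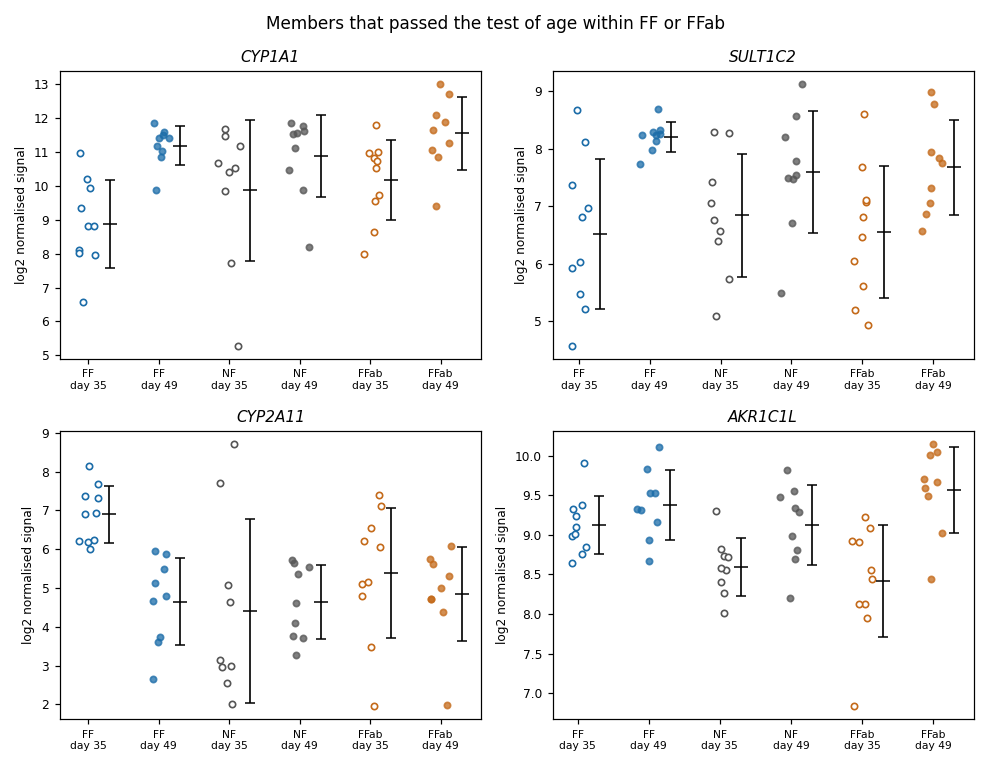
Log2 level in every rabbit of the 4 enzymes that passed within a treatment: CYP1A1, SULT1C2, CYP2A11 and AKR1C1L (vertical axis; open points day 35, filled points day 49, black bars mean ± SD). In FF all 10 rabbits of day 35 lie above all 9 rabbits of day 49 for CYP2A11, whereas for CYP1A1 7 of 9 rabbits of day 49 lie above all rabbits of day 35.

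Genes that the aryl hydrocarbon receptor is also known to switch on were set beside CYP1A1 across the 56 rabbits, after subtraction of the group means. For TIPARP, an ADP-ribosyltransferase, Pearson's r was -0.02 (permutation p = 0.870) and Spearman's rho was -0.04 (permutation p = 0.780). For NQO1, a quinone reductase, r was 0.06 (permutation p = 0.652) and rho was 0.01 (permutation p = 0.915). For CYP1B1, another P450 of the same family, r was -0.01 (permutation p = 0.932) and rho was -0.04 (permutation p = 0.790). After adjustment over the 3 pairs every p for r was 0.932 and every p for rho was 0.915, and without the 2 rabbits farthest from the CYP1A1 median r lay between -0.04 and 0.06. No relation was detectable in any of these 3 pairs. P450 LM4, the rabbit CYP1A2 protein, and the UGT1 enzyme were also measured on the array. Their relation to CYP1A1 was not tested.

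SULT1C2 transfers sulfate to phenols. Its only probe is named SULT1C4 in the array's own annotation and SULT1C2 through RefSeq. In FF it ran from 4.57 through 6.43 to 8.67 at day 35 and from 7.73 through 8.24 to 8.69 at day 49. At day 35, 8 of 10 rabbits lay below every rabbit of day 49, and the 2 others lay within the range of that age. SULT1C2 rose 3.23-fold in FF (1.69 ± 0.46, limma adjusted p = 0.0131) and 2.28-fold over the treatments (1.19 ± 0.27, adjusted p = 0.00136). With normexp background correction the changes were 1.09 and 0.78, both still called. In NF it ran from 5.09 through 6.76 to 8.29 at day 35 and from 5.48 through 7.54 to 9.13 at day 49, and in FFab from 4.93 through 6.64 to 8.60 and from 6.56 through 7.76 to 8.99. These ages overlapped, and the changes of 0.75 ± 0.47 and 1.13 ± 0.46 did not pass (limma adjusted p = 0.968 and 0.461).

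CYP2A11 belongs to a P450 subfamily that oxidizes nicotine and nitrosamines, and it was the only enzyme that fell in any age comparison. In FF it ran from 6.0 through 6.93 to 8.15 at day 35 and from 2.64 through 4.78 to 5.94 at day 49, so the ages did not overlap. It fell 4.77-fold (-2.25 ± 0.65, limma adjusted p = 0.0210) and was lower at day 49 on 9 of 9 slides. The probe was well above background in 10 of 10 FF rabbits at day 35 and 6 of 9 at day 49, so the lower levels lie near background. With another background correction (normexp) the change was -0.99, still called, and leaving out 1 FF rabbit of day 49 took the adjusted p to 0.0581.

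In NF, CYP2A11 ran from 2.00 through 3.13 to 8.71 at day 35, above background in 4 of 9 rabbits, and from 3.27 through 4.62 to 5.71 at day 49. In FFab it ran from 1.96 through 5.61 to 7.39 and from 1.97 through 5.0 to 6.08. The ages overlapped, and the changes of 0.22 ± 0.67 in NF and -0.54 ± 0.65 in FFab did not pass (limma adjusted p = 0.998 and 0.911). Over the treatments CYP2A11 had -0.86 ± 0.38 (adjusted p = 0.133), but it was called as fallen with array weights (-1.08, adjusted p = 0.0405) and in the deposited log2 table (-0.63, adjusted p = 0.0158).

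AKR1C1L resembles the aldo-keto reductases that reduce steroid ketones. In FFab it ran from 6.84 through 8.50 to 9.22 at day 35 and from 8.44 through 9.66 to 10.15 at day 49. At day 49, 7 of 9 rabbits lay above every rabbit of day 35. AKR1C1L rose 2.22-fold in FFab (1.15 ± 0.23, limma adjusted p = 0.0116) and was higher at day 49 on 9 of 9 slides. Without the 4 FFab rabbits and the NF rabbit that lacked SLC10A2 signal the change was 0.98 (adjusted p = 0.0449), and leaving out 1 other FFab rabbit of day 49 took the adjusted p to 0.0511.

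In FF, AKR1C1L ran from 8.65 through 9.05 to 9.91 and from 8.66 through 9.33 to 10.11, and in NF from 8.01 through 8.58 to 9.30 and from 8.20 through 9.28 to 9.81. The ages overlapped, and the changes of 0.26 ± 0.23 and 0.53 ± 0.23 did not pass (limma adjusted p = 0.582 and 0.739). Averaged over the treatments it rose 1.56-fold (0.65 ± 0.13, adjusted p = 0.000535).

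Within treatments the counts of called enzymes were small. In FF, 3 of 42 were called, 2 up and 1 down, beside 4.25% of all genes (2.78% up, 1.47% down), and 13 of 42 had an unadjusted p under 0.05, beside 20.9%. In FFab 1 of 42 was called, beside 0.0746% of all genes, and 8 of 42 had an unadjusted p under 0.05, beside 8.39%. In NF limma called 0 of 42, beside 0.0373% of all genes, and 9 of 42 had an unadjusted p under 0.05, beside 6.08%.

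The other 6 enzymes that rose passed in the average over treatments and not within a treatment. CYP2E1 oxidizes ethanol, acetone and other small molecules. Over all rabbits it ran from 5.25 through 7.92 to 9.40 at day 35 and from 7.0 through 9.32 to 11.24 at day 49, and in NF all 9 rabbits of day 49 lay above the median of day 35. It rose 2.33-fold (1.22 ± 0.25, limma adjusted p = 0.000580), with 1.05 in FF, 1.52 in NF and 1.09 in FFab, and was higher at day 49 on 9 of 9 slides. Its probe shares 56 to 59 bases with 4 probes of a locus named cytochrome P450 2E1-like, which gave 1.18 to 1.25.

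CES1 hydrolyses ester drugs. It ran from 3.75 through 5.70 to 7.27 at day 35 and from 4.32 through 6.54 to 8.02 at day 49. The ages overlapped, and CES1 rose 1.71-fold (0.78 ± 0.20, limma adjusted p = 0.00635). In FF its change of 0.97 ± 0.35 did not pass (adjusted p = 0.0757), but it was called with slide as a fixed block (0.92, adjusted p = 0.0405) or a random block (0.94, adjusted p = 0.0410), and in 3 other alternatives. With normexp background correction its change over the treatments was 0.41, short of the fold needed for a call. In FF, normexp was 1 of the alternatives that called it (0.55, limma adjusted p = 0.0358).

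The glutathione S-transferases couple glutathione to reactive compounds. GSTP1 ran from 13.99 through 15.05 to 16.24 at day 35 and from 14.42 through 15.53 to 16.85 at day 49. GSTM2 ran from 7.69 through 8.33 to 9.60 and from 8.33 through 8.92 to 9.68. The ages overlapped for both, and the rises were 1.53-fold for GSTP1 (0.61 ± 0.17, limma adjusted p = 0.0101) and 1.44-fold for GSTM2 (0.52 ± 0.14, adjusted p = 0.00576). GSTM2 stood close to the fold needed for a call, and leaving out any 1 of 6 rabbits took it below, to 0.49 at the lowest.

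GSTA5, the alpha class member whose probes are printed above, ran from 3.60 through 7.66 to 9.47 at day 35 and from 4.93 through 8.11 to 10.32 at day 49. It rose 1.82-fold (0.87 ± 0.27, limma adjusted p = 0.0249), and its second probe gave 0.75. Within treatments the changes were 0.13 ± 0.47 in FF, 1.61 ± 0.48 in NF and 0.86 ± 0.47 in FFab. In NF, 6 of 9 rabbits of day 35 lay below every rabbit of day 49, from 3.60 through 6.60 to 8.40 at day 35 and from 7.10 through 8.11 to 9.33 at day 49. In FF the ages ran from 7.49 through 8.18 to 9.47 and from 7.60 through 7.94 to 9.55.

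UGT2B13 attaches glucuronic acid to lipophilic compounds. It ran from 4.68 through 5.86 to 8.58 at day 35 and from 5.64 through 6.74 to 9.44 at day 49. The ages overlapped, and it rose 1.66-fold (0.73 ± 0.26, limma adjusted p = 0.0490), close to the threshold: the call was lost in 38 of the 56 fits that left out 1 rabbit.

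**Figure D3:**
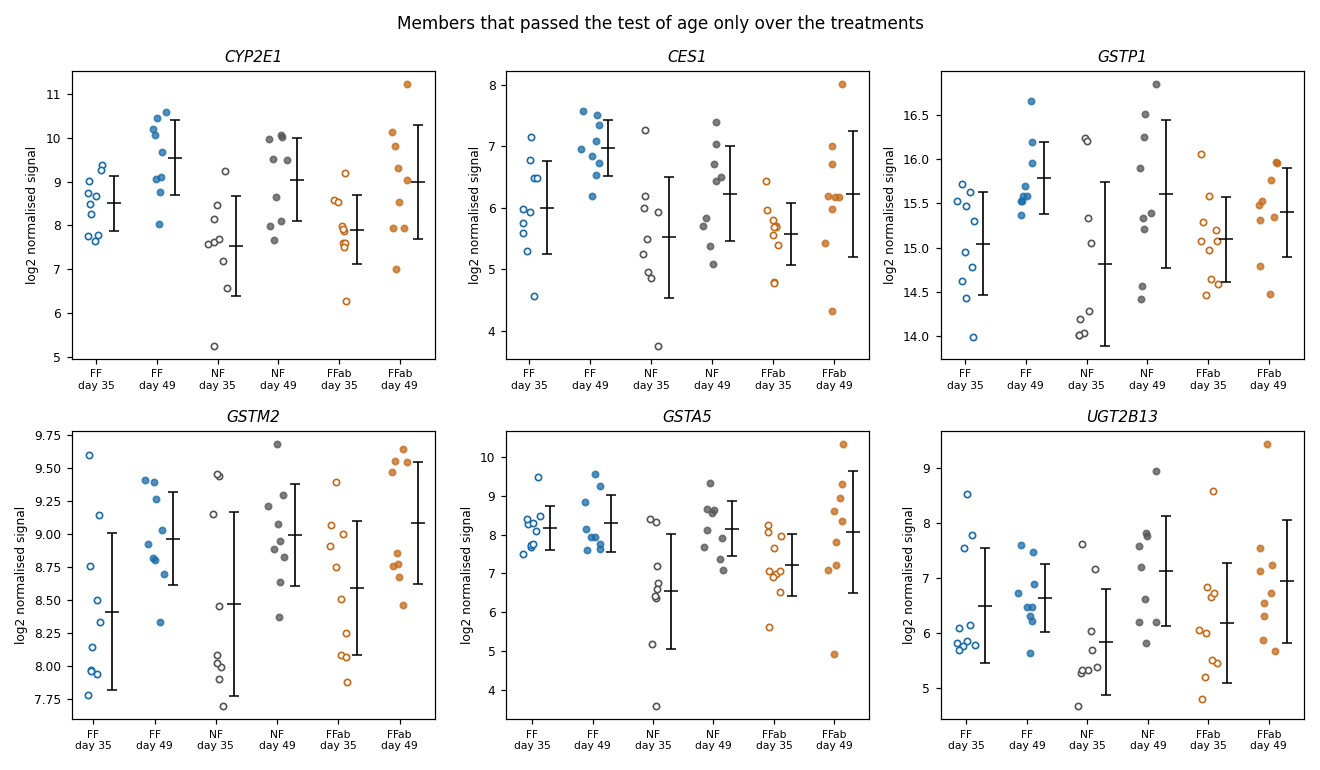
Log2 level in every rabbit of 6 enzymes that passed in the average over treatments and not within a treatment: CYP2E1, CES1, GSTP1, GSTM2, GSTA5 and UGT2B13 (vertical axis; open points day 35, filled points day 49, black bars mean ± SD). The ages overlap in every panel, and GSTA5 at day 35 reaches down to 3.60 in NF but only to 7.49 in FF.

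A further 4 enzymes had an adjusted p under 0.05 over the treatments but changed by less than 0.5. CES3, a carboxylesterase, was higher at day 49 by 0.38 ± 0.08 (limma adjusted p = 0.000328). SULT2B1, which sulfates cholesterol, was higher by 0.35 ± 0.07 (adjusted p = 0.000370), and FMO4, which oxidizes nitrogen and sulfur, by 0.45 ± 0.12 (adjusted p = 0.00489). CYP39A1, an oxysterol hydroxylase, was lower by a log2 difference of -0.19 ± 0.06 (adjusted p = 0.0421). The ages overlapped for SULT2B1, which ran from 8.87 through 9.39 to 10.02 at day 35 and from 9.34 through 9.73 to 10.30 at day 49. Counted by adjusted p alone, 13 of 42 enzymes differed, 12 higher and 1 lower, beside 13.4% of all genes (6.44% higher, 6.92% lower).

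Among the rest, CYP2J2, which makes epoxides of arachidonic acid, had a log2 change of -0.39 ± 0.15 (limma adjusted p = 0.0726), and SULT2A1, which sulfates bile acids and steroids, had 0.67 ± 0.33 (adjusted p = 0.185). UGT1-6, which glucuronidates phenols, had -0.12 ± 0.10 (adjusted p = 0.502), but its probes match transcripts of several genes, which cannot be told apart here. Of the 4 sulfotransferases tested, SULT1C2 alone passed.

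Whether the change with age differed between treatments was tested directly as a difference of differences. Limma called 0 of 42 enzymes in each of the 3 differences, beside 0% of all genes. At an unadjusted p under 0.05 there were 2 enzymes for FF minus NF, 1 for FF minus FFab and 0 for NF minus FFab, beside 4.46%, 2.87% and 0.907% of all genes. The smallest p in FF minus NF belonged to CYP2A11 (-2.47 ± 0.93, p = 0.0103, adjusted p = 0.871), followed by GSTA5 (-1.48 ± 0.67, p = 0.0317, adjusted p = 0.999). In FF minus FFab it belonged to AKR1C1L (-0.89 ± 0.32, p = 0.00781, adjusted p = 0.999). For CYP1A1, FF minus NF was 1.30 ± 0.84 (p = 0.127). The calls made in FF or FFab alone were therefore not shown to differ from the other treatments.

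**Figure D4:**
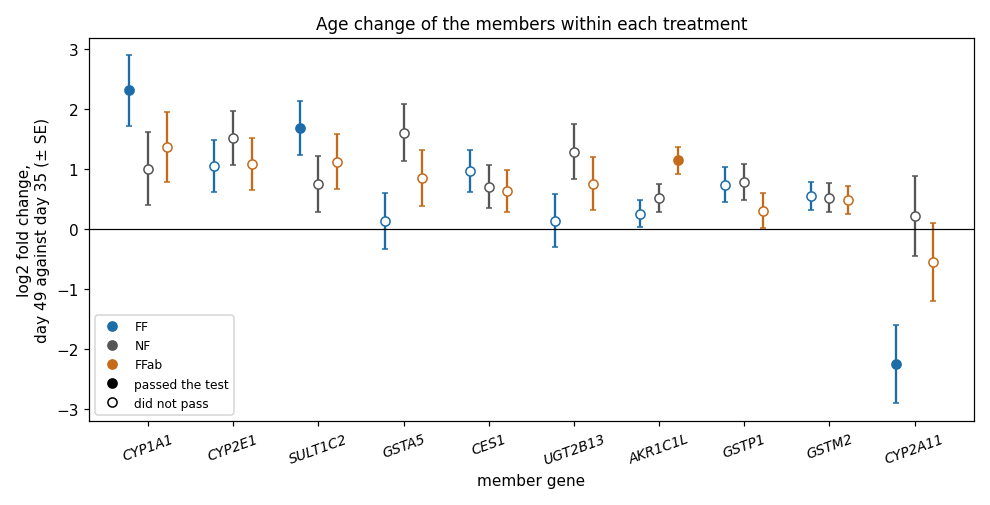
Log2 fold change from day 35 to day 49 within FF, NF and FFab of the 10 enzymes that passed in any age comparison (points with bars of 1 SE). CYP2A11 stands at -2.25 in FF, 0.22 in NF and -0.54 in FFab, and GSTA5 at 0.13, 1.61 and 0.86.

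The treatments were also compared at each age. At day 35 limma called 0 of 42 enzymes between FF and NF (0.0373% of all genes), with 4 at an unadjusted p under 0.05 (7.76% of all genes). Between FF and FFab it called 0 (0.0124%), with 5 at an unadjusted p under 0.05 (6.14%), and between NF and FFab it called 0 (0%), with 0 at an unadjusted p under 0.05 (2.09%). CYP2A11 was 2.49 ± 0.65 higher in FF than in NF (p = 0.000338, adjusted p = 0.181), and GSTA5 1.62 ± 0.47 higher (p = 0.00103, adjusted p = 0.266), neither past the threshold. The CYP2A11 probe was above background in 4 of 9 of these NF rabbits, and leaving out NF rabbit 83 or 84 made it a call, with an adjusted p of 0.0286 at the lowest. AKR1C1L was 0.70 ± 0.22 higher in FF than in FFab (p = 0.00258, adjusted p = 0.373), and CYP1A1 differed by -1.31 ± 0.57 (p = 0.0264, adjusted p = 0.726). The FF rabbits of day 35 enter these comparisons and the age change in FF alike.

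At day 49 limma called 0 of 42 enzymes in each of the 3 comparisons, beside 0% of all genes. At an unadjusted p under 0.05 there were 1 for FF and NF, 1 for FF and FFab and 0 for NF and FFab, beside 1.17%, 2.31% and 1.80% of all genes. That enzyme was CES1, 0.74 higher in FF than in NF and 0.75 higher than in FFab. Averaged over the ages the treatments gave 0 calls among the 42 enzymes by limma, beside 0% of all genes, with 4 at an unadjusted p under 0.05, beside 3.89%.

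Levels of these enzymes differed widely between rabbits of the same group. The median SD within groups was 0.80 on the log2 scale, against 0.33 over all genes, and 36 of 42 enzymes lay above that median of all genes. Only 27 of the 42 enzymes were above background on all arrays, and 8 passed the filter in 1 to 5 groups only. Readings near background can widen an SD, and enzymes were not compared with genes of like signal. CYP2C, whose probe matches a pair of CYP2C transcripts, ranked 7 of 8045 genes by this SD (2.72), and AKR1D1, which reduces bile acid precursors and steroids, ranked 8 (2.69). The AKR1D1 probe was above background on 38 of 56 arrays and passed the filter in 2 groups only, so its lowest readings lie at background and its SD and rank depend on them. CYP2C14 (2.03), CYP2C30 (2.01) and CYP3A6 (1.95), P450s of the main drug-oxidizing subfamilies, ranked 28, 30 and 31. Without the 5 rabbits that lacked SLC10A2 signal the SDs were 2.36 for CYP2C, 2.57 for AKR1D1, 2.06 for CYP2C14, 1.65 for CYP2C30 and 2.00 for CYP3A6. The median was then 0.73 over the enzymes and 0.32 over all genes. NF rabbit 93 of day 35, which was also low in FABP6 and SLC10A2, stayed in. Its CYP2C (12.02) and CYP2C30 (13.28) were the highest of its group. These genes were chosen after their values were seen. Beside such spread their changes with age had wide errors and did not pass: over the treatments CYP2C had -0.84 ± 0.71 (limma adjusted p = 0.504) and CYP3A6 had -0.44 ± 0.51 (adjusted p = 0.644).

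CYP2C ran from 5.76 through 7.69 to 10.90 in FF and from 4.09 through 7.97 to 13.55 in FFab at day 35, and from 5.41 through 6.28 to 13.45 in NF at day 49. In each of the 6 groups the rabbit with the highest CYP2C also had the highest CYP2C30, but 1 of the CYP2C transcripts is that of CYP2C30, so the pair is not independent. That rabbit was above its group's median for CYP2C14 in 6 of 6 groups, and for CYP3A6 and AKR1D1 in 5 of 6. Without the 5 rabbits, but with NF rabbit 93 of day 35, the counts were 6 of 6 for the highest CYP2C30. Above the median they were 6 of 6 for CYP2C14, 5 of 6 for CYP3A6 and 4 of 6 for AKR1D1.

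The libraries that stood apart for ileal markers were among the highest for CYP2C. In the 6 rabbits with the highest CYP2C of their group FABP6 read 19.19, 19.19, 9.46, 7.87, 8.57 and 14.28. In the 5 rabbits that lacked SLC10A2 signal CYP2C read 10.85 to 13.55, CYP3A6 read 14.90 to 15.85, and FABP1, a fatty acid binding protein of absorptive cells, read 18.04 to 18.61 against a median of 14.25 over all rabbits. The 2 values of 19.19 belong to the FF rabbits. The part of these markers in the spread was not tested.

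**Figure D5:**
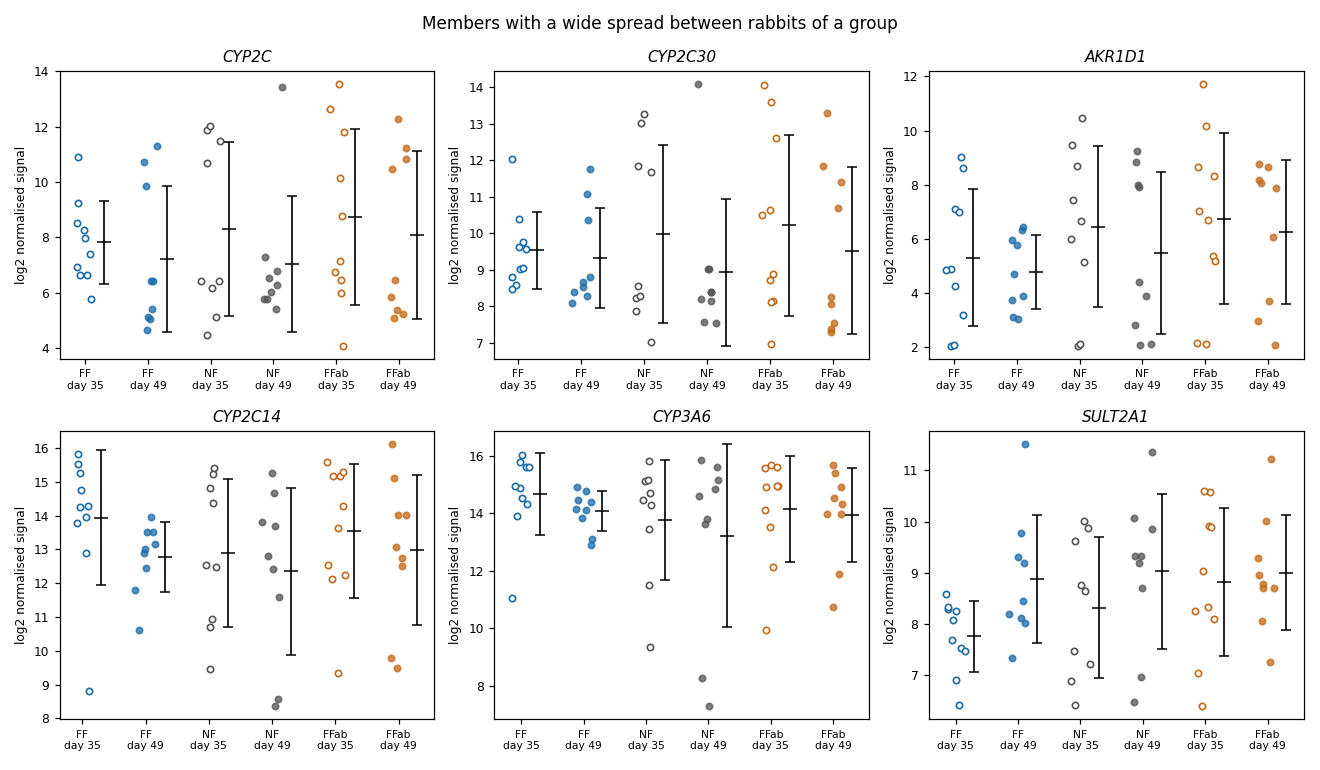
Log2 level in every rabbit of CYP2C, CYP2C30, AKR1D1, CYP2C14, CYP3A6 and SULT2A1 (vertical axis; open points day 35, filled points day 49, black bars mean ± SD). Rabbits of 1 group span a mean range of 7.34 for CYP2C and 5.44 for CYP3A6, and the ages overlap throughout.

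Probes of the same gene mostly gave the same reading. Of 15 enzymes with more than 1 usable probe, 10 had the same sign of the age change on every probe, and the median width between probes was 0.03. The widest was SULT2A1, whose 5 probes gave 0.67 to 1.01.

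Other genes of the same pathways were read from lists. Over the treatments 3.43% of all genes were called, and 25.6% had an unadjusted p under 0.05. Of 12 receptors and other regulators tested out of 24 listed, none passed over the treatments by limma, with 3 at an unadjusted p under 0.05 and a median log2 fold change of 0.02. AHR itself stood at -0.10 ± 0.11. None of 5 electron donors of P450 enzymes passed (of 11 listed, median -0.05, 0 at an unadjusted p under 0.05), and none of 17 drug transporters passed (of 28 listed, median -0.03, 5 at an unadjusted p under 0.05). Of 10 tested targets of the oxidative stress factor NRF2 (21 listed), none rose and ME1, the malic enzyme that supplies NADPH, fell by 1.42 ± 0.43 (limma adjusted p = 0.0186).

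Among 22 other oxidizing and reducing enzymes tested (34 listed, median 0.13) 9 had an unadjusted p under 0.05, beside 25.6% of all genes. Of the 22, 2 rose, beside 2.36% of all genes. The 2 were HSD11B1, which reactivates cortisone (0.62 ± 0.15, limma adjusted p = 0.00384), and AOX1, an aldehyde oxidase (0.52 ± 0.16, adjusted p = 0.0176). None of 16 other conjugating enzymes tested (28 listed, median 0.08) passed over the treatments, with 7 at an unadjusted p under 0.05, beside the same 25.6%. In FF, 1 of the 16 rose (HNMT, which methylates histamine, by 0.54) and 1 fell, beside 4.25% of all genes called.

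Markers of cell types were read beside the enzymes, since the tissue was whole. Of all genes, 2.36% rose over the treatments, 1.07% fell and 25.6% had an unadjusted p under 0.05. In FF 2.78% of all genes rose and 1.47% fell. Over the treatments 1 of 11 enterocyte markers rose (ALPI, by 0.74; median of the list 0.48), and in FF 3 of 11 rose. The mean log2 level of the enterocyte list ran from 13.22 to 15.00 in FF at day 35 and from 14.28 to 14.65 at day 49. None of 7 general epithelial markers passed over the treatments by limma (median 0.01, 2 at an unadjusted p under 0.05), and in FF KRT18 fell by 0.63. Of 3 fat tissue markers 2 rose (LPL and FABP4), of 5 red blood cell markers 3 fell, and of 5 liver markers 1 rose (HPX). Over the treatments limma called none of 3 markers of goblet cells, 11 of leukocytes, 7 of smooth muscle, 5 of fibroblasts, 4 of endothelium and 2 of pancreas, with 0, 1, 0, 2, 2 and 1 of them at an unadjusted p under 0.05. The part of these markers in the changes of the enzymes was not tested.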

How the data were processed

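Ileum RNA was measured on 57 custom Agilent 1-colour arrays, each of 1 rabbit, spread over 9 slides that each held all 6 groups. The authors deposited the scanner's background-subtracted intensity per spot (Feature Extraction 10.7.3.1 per the submitters' processing notes, 10.10.1.1 per the file headers) and a normalized log2 table, which was used as an alternative; its columns all had a median of 8.78. Control spots and outlier spots (281 to 462 per array) were left out, the spots of a probe were averaged, and intensities were put on the log2 scale and quantile normalized (limma 3.58.1, R 4.3.3). NF rabbit 78 of day 35 was then left out, as in the study. A probe was kept if, in some group, 75% or more of the arrays had 50% or more of its spots well above background (31722 of 42089 probes), and each gene was read from its probe of median level. The quantities are levels on an array, whose number limits their precision, and the levels of different probes are not comparable.

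Means of the 6 groups were fitted in limma over 56 arrays and 8045 genes, with Benjamini-Hochberg adjustment over all genes. A call needed an adjusted p under 0.05 and a log2 fold change beyond 0.5. Values are log2 fold changes ± SE. Correlations used 100000 permutations. The fit was tested on simulated data. The members and gene lists were chosen with earlier results of these data known. Named genes were CYP1A1, AKR1C1L, every enzyme that passed, the 3 with the smallest p of each family, difference and treatment test, and up to 6 passing genes of each other list. Gene names came from the files' accessions and gene identifiers through RefSeq. For 139 probes they came only from the study's lists of genes that differed between the ages, CYP2E1 among them. CYP1A1 and GSTA5 are RefSeq loci without those symbols, which the same lists give. Probes without a gene (21374) were not used. Alternatives were the deposited log2 table, normexp, 75th percentile scaling, all 57 arrays, other filters, the brightest probe, slide as a block, array weights and 1 treatment's arrays alone. Leaving out each rabbit, and leaving out the 5 without SLC10A2 signal, were chosen after seeing the data. Figures were drawn with matplotlib 3.10.9.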

Additional observations from a re-analysis of the deposited data

Results flagged for a closer look

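In 14 of 144 groups of values (24 named enzymes in 6 groups) the highest or lowest rabbit stood far from the others by Dixon's criterion, which chance meets in about 1 of 20 groups. Low rabbits were 1 FFab rabbit of day 35 for AKR1C1L (6.84, nearest 7.95), 1 FF rabbit of day 49 for CYP1A1 (9.87, nearest 10.86) and FMO1 (6.99, nearest 7.95), 1 FF rabbit of day 35 for CYP26B1 (2.38, nearest 3.94) and 1 FFab rabbit of day 49 for CYP2A11 (1.97, nearest 4.38). High rabbits at day 35 were 1 FF rabbit for GSTA5 (9.47, nearest 8.47), 1 FFab rabbit for CYP39A1 (9.29, nearest 8.94) and NF rabbit 84 for CYP51A1 (11.68, nearest 11.01). High rabbits at day 49 were 1 FF rabbit for CYP26B1 (6.62, nearest 5.15), 1 FF rabbit for CYP2S1 (8.13, nearest 7.65) and FMO5 (11.31, nearest 10.69), 1 FFab rabbit for CYP51A1 (11.64, nearest 11.02), 1 FFab rabbit for UGT2B13 (9.44, nearest 7.56) and 1 NF rabbit for FMO1 (10.57, nearest 8.85). The rabbits that stood apart for AKR1C1L at day 35, UGT2B13 at day 49 and FMO1 in NF were among the 5 without SLC10A2 signal.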

How the results depend on the processing

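The count of enzymes called in FF was 3, and became 6 with array weights (5.42% of all genes called) and 5 with the FF arrays alone (4.43%), while the 1 call in FFab became 0 with the FFab arrays alone (0%). The correlation of CYP1A1 with TIPARP turned from -0.02 to 0.14 in the deposited log2 table (adjusted permutation p = 0.465). The cause was not tested. Leaving out each rabbit gave 2 to 5 calls in FF (5 without 1 FF rabbit of day 35), 0 to 0 in NF, 0 to 1 in FFab (0 without 1 FFab rabbit of day 49) and 7 to 9 over the treatments. It gave 0 to 1 calls for FF against NF at day 35 (CYP2A11, without NF rabbit 83 or 84) and 0 to 0 in the other treatment comparisons and differences of age changes. Of the single enzymes, CYP2A11 in FF stood at -0.02 without the filter, where the gene is read from a probe that was never above background. GSTM2 over the treatments fell short of the fold in the deposited table (0.49), with normexp (0.46), with all 57 arrays (0.48) and when any 1 of 6 rabbits was left out, and CES1 with normexp (0.41). UGT2B13 lost its call in the deposited table, with normexp, with 75th percentile scaling, with all 57 arrays and without the filter. With slide as a block CES1 was also called in FF, and no count of enzymes called moved by over 1.5 times. No paired analysis was possible because no rabbit was sampled at both ages and rabbit numbers are not shared between groups; slide, which does link the groups, was used as a block. Dim probes limit CYP2A11 in particular.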

Other observations

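Relatives that the naming rule left out were read from their own probes, with adjustment over all probes. The 5 probes of P450 LM4, the rabbit CYP1A2 protein, had log2 changes of -0.10 to 0.30 over the treatments, and none passed by limma. The 5 probes of a locus named glutathione S-transferase alpha 4 were lower at day 49, with log2 changes between -0.17 and -0.26 (limma adjusted p = 0.00218 to 0.0267), short of the fold for a call. A probe for AKR1C1 had -0.60 ± 0.31 (adjusted p = 0.218), whereas AKR1C1L rose.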
